A study of Mus musculus with 23 samples.

Results

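Type 1 conventional dendritic cells (cDC1) of control melanomas were described from 12 of the 23 RNA sequencing libraries of the series, those labelled as cDC1 from a BRAFV600E melanoma grown in a wild-type mouse. The host mice were C57BL/6, and each carried a subcutaneous tumour from 2000000 injected BRAFV600E control melanoma cells, which per the design text produce prostaglandin E2 (PGE2). Tumours were taken on day 6, and the sort kept live cells that were CD45+, CD103+, CD11c+ and MHC-II+ but CD11b-, in pools of 10 cells dropped straight into lysis buffer. There were 4 mice with 3 pools each, which the labels call technical replicates of a mouse. The other 11 libraries came from tumours lacking Ptgs1 and Ptgs2 and entered no comparison. The control tumours come from 1 melanoma line, the labels give no age of the mice, and no other tissue was used here as a reference for the tumour.

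The cDC1 lineage depends on the transcription factors IRF8, BATF3 and ID2. It takes up material from dying cells, for which the receptor CLEC9A is known, and presents it on MHC class I to CD8 T cells, a route called cross-presentation. Like other dendritic cells, cDC1 also load peptides on MHC class II in a late endosomal compartment, with the invariant chain CD74 as chaperone, H2-DM as the peptide editor and the transactivator CIITA as the switch of the pathway. On maturation they raise costimulatory molecules and the chemokine receptor CCR7, which guides them to lymph nodes.

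Chains of MHC class II stood among the highest genes of these cells. The DNA just upstream of 4 class II genes is shown for the boxes that the CIITA complex is known to use. H2-Aa and H2-Eb1 were among the high ones, and H2-DMb1 and H2-Ob had lower levels. The X box core was searched as AACNNATG and the Y box core as ATTGG, each on both strands; the letters of the searches do not overlap in the stretches printed. Each line holds 150 bases ending right before the RefSeq start (build GRCm38.p6), 5′ to 3′ on the gene's strand, with matches in capitals.
H2-Aa, chr17:34287824-34287973, minus strand: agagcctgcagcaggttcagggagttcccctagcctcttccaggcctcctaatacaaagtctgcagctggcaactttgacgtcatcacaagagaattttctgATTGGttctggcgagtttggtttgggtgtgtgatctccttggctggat
H2-Eb1, chr17:34305717-34305866, plus strand: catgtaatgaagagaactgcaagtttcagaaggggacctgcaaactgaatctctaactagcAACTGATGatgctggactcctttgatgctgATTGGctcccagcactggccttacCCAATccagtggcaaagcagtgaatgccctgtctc
H2-DMb1, chr17:34153041-34153190, plus strand: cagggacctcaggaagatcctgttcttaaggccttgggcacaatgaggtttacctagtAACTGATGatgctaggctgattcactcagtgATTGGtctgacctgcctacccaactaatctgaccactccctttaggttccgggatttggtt
H2-Ob, chr17:34238755-34238904, plus strand: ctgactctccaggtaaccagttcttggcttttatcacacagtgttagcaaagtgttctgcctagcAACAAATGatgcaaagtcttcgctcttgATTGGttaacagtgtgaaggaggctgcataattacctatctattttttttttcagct
The first Y core match began 48 bases before the start in H2-Aa, 59 in H2-Eb1, 61 in H2-DMb1 and 57 in H2-Ob. An X core match lay upstream of it in the last 3, beginning at 89, 92 and 85 bases. Of 32851 RefSeq promoter windows of 300 bases, 37.4% held the Y core, 8.86% the X core and 4.01% both. Of the 8 class II genes with a window, 8 held the Y core and 5 held both. A match of so few letters is a description of the sequence only.

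Levels are given as CPM (counts per 1000000 counts of a mouse) after summing its 3 pools, as mean ± SD over 4 mice. CPM serves to compare mice and pools for 1 gene. Order between genes uses length-scaled CPM, the counts per 1000 bases of exon rescaled to 1000000 over protein-coding genes. The pools held 25571 to 57523 counts and 4631 to 7390 detected genes. All 12 together held 542886 counts, so that a gene with no count may still have had up to 5.53 CPM (3 counts, counting error only). A change in CPM of a pool may reflect fewer cells of a type or less RNA per cell, and these cannot be told apart in pooled RNA.

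Counts of markers that define macrophages, plasmacytoid dendritic cells or T cells came together in 6 of the 12 pools. Macrophage markers (10 genes, among them Apoe and the C1q subunits) gave 114 counts in mouse 2 pool 2 and 120 in mouse 4 pool 1, against 0 to 3 in each of the other 10. Markers of plasmacytoid dendritic cells (pDC; 6 genes, among them Siglech and Ly6d) gave 20 and 45 counts in mouse 3 pools 1 and 3 and 27 and 15 in mouse 4 pools 1 and 2, against 0 or 1 elsewhere. T cell receptor complex markers gave 12 counts in mouse 1 pool 2 and 0 in every other pool. These 6 pools, with 10 or more counts of a marker set, are called marker pools below, and where a mean level in CPM moved by more than 1.5 times without them, that mean is given too. The other 6 were mouse 1 pools 1 and 3, mouse 2 pools 1 and 3, mouse 3 pool 2 and mouse 4 pool 3. Markers of cDC2 and monocytes were not used for this split, so these pools need not be free of other cells. Mouse 4 pool 3 had 12 counts of the cDC2 marker Cd209a. It also had 17 of Ms4a4c, which is on the cDC2 and monocyte lists. For both genes this was the highest count of any pool.

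Genes of proteins used in the sort gates were read in the RNA. Itgae, the gene of CD103, was detected in 12 of 12 pools and Itgax, the gene of CD11c, in 12, while Itgam, the gene of CD11b, had counts in 5 pools at 24.1 ± 18.9 CPM (14.9 CPM without marker pools). Over all detected protein-coding genes the median was 19.0 CPM. Of 16 cDC2 markers with a row, 3 were found in all 12 pools. These were S100a4, Cd300a (129 ± 35.6 CPM) and Sirpa (71.0 ± 30.3 CPM). The 16 markers summed to 1252 ± 477 CPM, the largest part from S100a4 (519.8 ± 246 CPM), a calcium-binding protein of many leukocytes. Cd209a, a lectin of cDC2 and monocyte-derived cells, had 115, 13.3, 113 and 129 CPM in mice 1 to 4. The 6 monocyte markers with a row summed to 1175 ± 426 CPM, led by Plac8 (752 ± 176 CPM). The pDC list had counts in 14 of 16 members with a row (Dntt and Smim5 at 0) and ranged from 168 to 1351 CPM between mice. The macrophage list had counts in 15 of 15 and ranged from 379.6 to 2044 CPM.

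Marker genes of other lineages had few counts. T cell genes gave 18 counts over all pools, and of 12 with a row Cd4, Foxp3 and Trbc1 had none. B cell genes gave 27 counts, with Cd79b at 0, and melanocyte genes 9 counts, from Pmel and Dct. Endothelial genes gave 43 counts from 4 genes, and Thy1, the 1 fibroblast gene with a row, was at 0. Among 4 NK cell genes with a row, Klrk1 (219 ± 146 CPM, 12 of 12 pools) made up most of the sum, and Gzmb was at 0. Kit, which the mast cell list holds and which precursors of dendritic cells also express, had 112 ± 55.7 CPM and counts in 12 pools. None of the 14 neutrophil genes had a row, so that their levels could not be read.

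A small number of rows held a large part of the counts. The 10 highest rows held 17.1% of the mean CPM, the 50 highest 30.5% and the 1000 highest 71.7%. Among the 10 highest was CT010467.1, annotated as ribosomal RNA, with 84140, 68670, 71788 and 45096 CPM in mice 1 to 4. Of 12401 rows with a count, 1618 were detected in all 12 pools and 1404 in 1 pool only. Of 10269 protein-coding rows, 9676 had a count, so that counts in most members of a gene list do not set that list apart. Nuclear protein-coding genes took 73.9% ± 2.62 of the counts (SD, n = 4). Within them, 83 cytosolic ribosomal protein genes took 16.5% ± 0.443 and the 10 genes of MHC class II and the invariant chain 2.27% ± 0.146. Mitochondrially encoded genes took 5.32% ± 0.892, rows like ribosomal RNA 6.75% ± 1.63 and pseudogene rows 11.3% ± 0.473. Among pools, the class II share ran from 1.77% to 3.06% and the mitochondrial share from 4.05% to 7.99%.

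Cytoskeletal, antigen-presentation and interferon-induced transmembrane genes led the protein-coding genes. Of the 50 with the highest length-scaled level, 28 were cytosolic ribosomal proteins and 5 were mitochondrially encoded. Of the remainder, Tmsb4x (thymosin beta 4, which binds actin monomers; chrX:167207093-167209315, GENCODE M21 on GRCm38) was the highest at 28909.8 ± 1635 length-scaled CPM. Its CPM was even between mice, 13738, 15423, 14553 and 14309.7 CPM in mice 1 to 4. Cst3 (cystatin C, an inhibitor of cysteine proteases and a known mark of dendritic cells; chr2:148871722-148875692) came next at 24096 ± 2145, with 10118, 10037, 12264 and 12343 CPM in mice 1 to 4. Mice 3 and 4 were above mice 1 and 2 for this gene. Tmsb10, a second thymosin, followed at 15629 ± 1614, Actb (beta actin) at 14419 ± 1002 and Ifitm1 (an interferon-induced transmembrane protein) at 14045 ± 1445. The levels of these 3 overlapped between mice, so that their order is not set.

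Ifitm3 (7843 ± 1039) and Ifitm2 (7063 ± 1755), neighbours of Ifitm1 on chromosome 7, also stood among the 20 highest. Ifitm2 had 1104, 1597, 2128 and 1979.75 CPM in mice 1 to 4, lowest in mouse 1, as were Ifitm1 (4768, 5433, 5784 and 6578 CPM in mice 1 to 4) and Ifitm3 (1580.4, 1875, 2273 and 2076 CPM in mice 1 to 4). Small proteins made up much of the rest: Atox1, a copper chaperone, at 8450.0 ± 1627 length-scaled CPM, S100a11 at 7880.3 ± 1108, Crip1 at 3711 ± 622 and Cd52 at 3959 ± 278. Tyrobp, the adaptor DAP12 of many myeloid receptors, had 4651 ± 509, and Eef1a1, an elongation factor of translation, 3568 ± 295. Gm9844 (10865 ± 858) and Rps27rt (3811 ± 285) are near-copies of other genes and their counts are uncertain, since reads could be split between the copies.

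**Figure D1:**
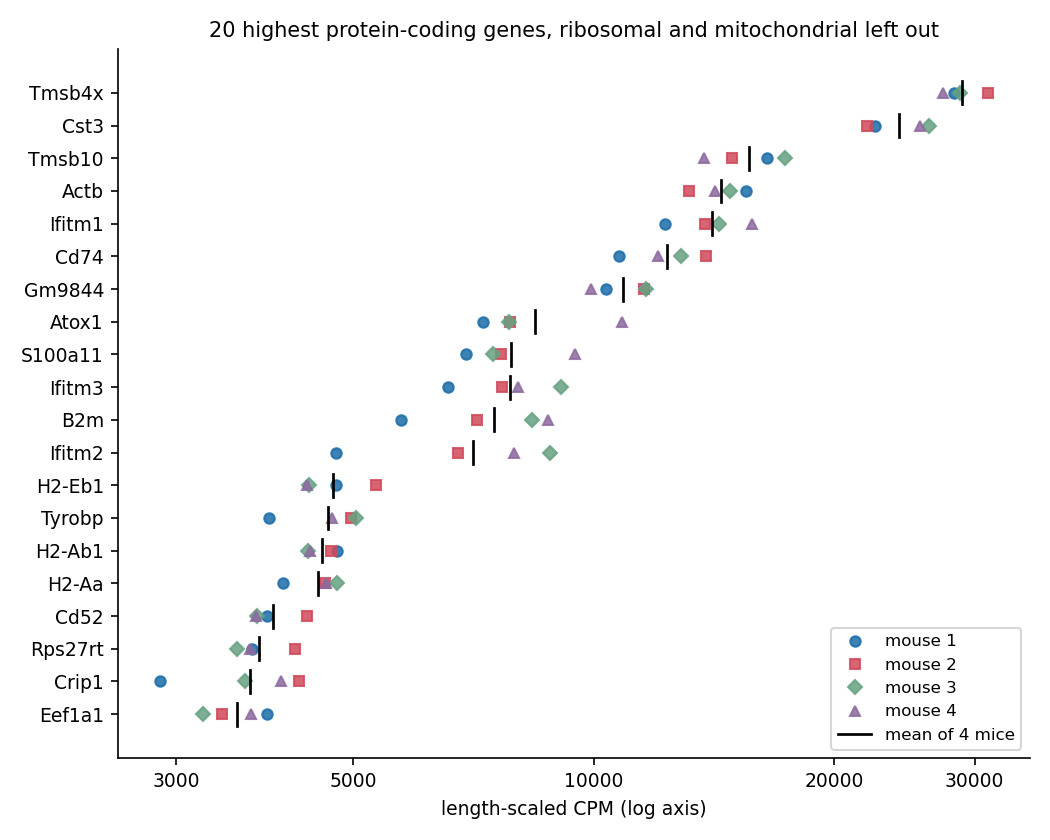
Length-scaled CPM (log axis) of the 20 highest protein-coding genes outside the ribosomal protein and mitochondrial groups, 1 symbol per mouse and a line at the mean of 4 mice. Tmsb4x and Cst3 lie to the right of every other gene in all 4 mice, and Actb, Tmsb10 and Ifitm1 overlap.

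The MHC class II list had counts in 27 of 27 members, against 9676 of 10269 protein-coding rows, and 16 members were found in all 12 pools. The median of its members was 90.2 length-scaled CPM, against 10.96 over all 9676 detected protein-coding genes. Its sum was 36919.7 ± 2695 CPM (n = 4). The list also holds Cst3, which alone had 11190.5 ± 1286 CPM, and cathepsins. The 10 genes of MHC class II and the invariant chain took 2.27% of all counts. Cd74, the invariant chain, had 6401, 8368, 7960.3 and 7699.75 CPM in mice 1 to 4, lowest in mouse 1. H2-Aa (chr17:34282744-34287823), the alpha chain of I-A, had 5492, 6307, 6682 and 6687 CPM in mice 1 to 4. H2-Ab1 (chr17:34257689-34269419), its beta chain, had 4344, 4339.5, 4150.0 and 4314 CPM in mice 1 to 4, a spread of 2.15% between mice. H2-Eb1 (chr17:34305867-34316674), the beta chain of I-E, had 3276, 3743, 3155 and 3237 CPM in mice 1 to 4. On the length-scaled measure these 3 chains lay close together, at 4519 ± 304 for H2-Aa, 4562 ± 195 for H2-Ab1 and 4716 ± 451 for H2-Eb1, and their ranges over mice overlapped.

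The peptide editors were lower. Per length, H2-DMb1 had 731 ± 51.0 length-scaled CPM, H2-DMa 325 ± 72.1 and H2-DMb2 186 ± 41.4, and H2-DMb1 and H2-DMb2 are similar enough that reads could be split between them. The H2-DO chains H2-Oa (137 ± 66.2) and H2-Ob (63.7 ± 26.5) were lower still. Ciita, the transactivator, was found in 12 of 12 pools at 265, 278, 235 and 148 CPM in mice 1 to 4, lowest in mouse 4. The factors that bind the printed boxes gave few counts: Rfx5 had 3 over all pools, Rfxap 6 and Rfxank 4, and Nfya, Nfyb and Nfyc had 10, 17 and 11. Ctss, the cathepsin that trims the invariant chain, stood at 1232 ± 333 CPM. The lysosomal list, which shares Cst3 and the cathepsins, had counts in 26 of 26 members, with Psap (prosaposin) at 1084 ± 294 CPM and Ctsz at 199.9 ± 33.4 CPM.

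The MHC class I list had counts in 33 of 33 members, again near the share of all protein-coding rows, and in all 12 pools for 15. Its median was 52.6 length-scaled CPM and its sum 8155 ± 709.8 CPM. B2m, the light chain, had 1748, 2213, 2653 and 2869.7 CPM in mice 1 to 4, with mouse 1 lowest and mouse 4 highest. Heavy chain H2-D1 had 636, 643, 582 and 671 CPM in mice 1 to 4 and H2-K1 362, 378, 275 and 413 CPM in mice 1 to 4, with a mean of 228 CPM without marker pools; class I heavy chains are alike in sequence, so that their separate levels are uncertain. Psme1 and Psme2, the subunits of the proteasome activator PA28, had 561 ± 116 CPM and 354 ± 101 CPM, and the immunoproteasome subunits Psmb8 and Psmb9 605 ± 107 CPM and 347 ± 65.5 CPM. The peptide transporter genes were lower per length, Tap1 at 52.6 ± 18.7 and Tap2 at 38.2 ± 19.3 length-scaled CPM.

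Of the 30 cDC1 identity genes, 29 had counts, near the share of all protein-coding rows, 9676 of 10269. In all 12 pools were 16 of the 30, against 1618 of 12401 rows with a count. Their median was 76.5 length-scaled CPM, against 10.96 over all detected protein-coding genes. Their sum was 6890.1 ± 1185 CPM, lowest in mouse 2 (5320.0 CPM) and highest in mouse 3 (8195). The sum per pool ran from 4432 to 9104 CPM. Cd8a, a mark of cDC1 in lymphoid organs, had no count, which allows up to 5.53 CPM.

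The highest identity genes per length were Id2 and Ifi205. Ifi205, an interferon-inducible HIN200 protein, had 1236, 1034, 1537 and 1445 CPM in mice 1 to 4. Cd24a, a surface glycoprotein, had 539, 451, 720.0 and 497 CPM in mice 1 to 4. Wdfy4, needed for cross-presentation of cell-bound antigen, had 592, 411, 582 and 593 CPM in mice 1 to 4, and mouse 2 lay below the other 3. Naaa, an acid amidase, had 539, 239, 509.65 and 593 CPM in mice 1 to 4, again with mouse 2 lowest. Ppt1 (396 ± 31.5 CPM), Rab7b (295 ± 43.6 CPM) and Btla (246 ± 13.1 CPM), an inhibitory receptor, varied less between mice. Flt3, the receptor of the cytokine that drives dendritic cell development, had 229.6, 239, 243 and 193 CPM in mice 1 to 4.

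Surface receptors by which cDC1 are usually recognised gave fewer counts. Clec9a was detected in 12 of 12 pools at 168, 113, 178 and 83.8 CPM in mice 1 to 4, Itgae in 12 at 177, 53.0, 129 and 155 CPM in mice 1 to 4 and Tlr3, a sensor of double-stranded RNA, in 11 at 70.6, 106, 97.1 and 70.9 CPM in mice 1 to 4. The mean of Tlr3 was 86.2 CPM with and 54.0 CPM without marker pools. Xcr1, the receptor of the chemokine XCL1, had 30 counts in 7 pools, with 79.5, 6.63, 89.0 and 58.0 CPM in mice 1 to 4. Its count was 10 in mouse 3 pool 2, 7 in mouse 1 pool 1 and mouse 4 pool 1, and 0 to 2 in the other 9 pools. A count of 0 in the shallowest pool allows up to 117 CPM. Cadm1 had counts in 8 pools, Ly75 (DEC-205) in 8, Tlr11 in 6, Cd36 in 5, and Cxcr3 and Clnk in 2 each. The remaining identity genes were Gcsam (199 ± 52.9 CPM), Sept3 (139 ± 56.1 CPM), Rnase6 (123 ± 61.1 CPM), Txndc15 (81.2 ± 48.6 CPM, and 49.1 CPM without marker pools), Zbtb46 (55.5 ± 26.5 CPM), a factor of conventional dendritic cells, Pdia5 (37.1 ± 21.5 CPM) and Snx22 (22.95 ± 18.7 CPM).

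**Figure D2:**
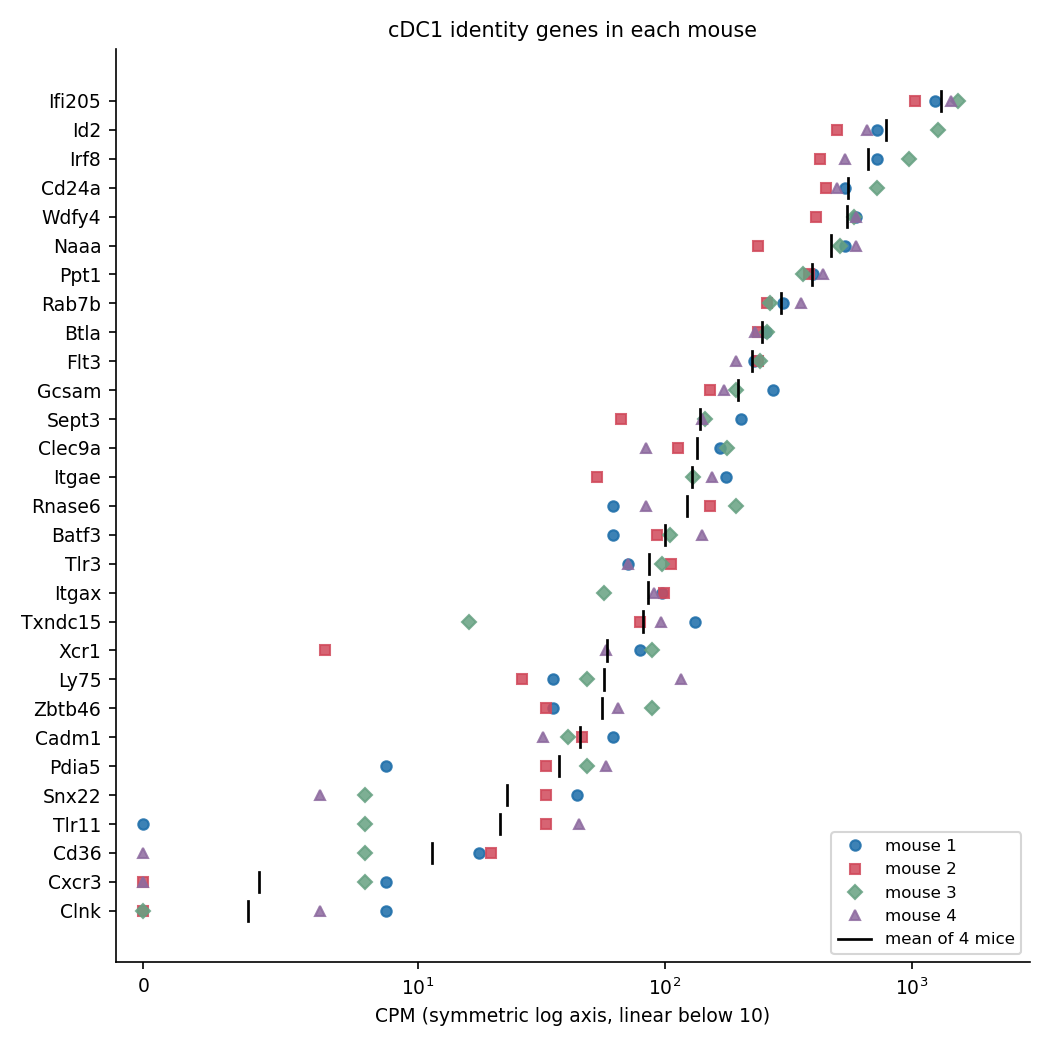
CPM (symmetric log axis, linear below 10) of the 29 cDC1 identity genes with counts, 1 symbol per mouse and a line at the mean of 4 mice. Genes are sorted by mean CPM, which is not corrected for length, and mouse 2 is the lowest point for Xcr1, Itgae, Naaa and Wdfy4.

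Transcription factors were picked by name patterns, which matched 536 protein-coding rows, 502 with counts. Only 24 reached 100 length-scaled CPM, and the median was 7.41, against 15.8 for 290 detected receptors and 16.6 for 73 detected cytokines and secreted proteins. Id2, which blocks E proteins and is required for cDC1, was highest at 883 ± 376 length-scaled CPM, with 724, 497, 1278 and 658 CPM in mice 1 to 4. Irf8, the lineage factor, had 724, 424, 971 and 535 CPM in mice 1 to 4, the same order of mice as Id2, with mouse 3 highest and mouse 2 lowest. Its partner Batf3 had 61.8, 92.8, 105 and 142 CPM in mice 1 to 4, was detected in 12 of 12 pools and did not follow that order. Per length, Irf8 (257 ± 93.1) and Batf3 (170.5 ± 51.2) overlapped between mice.

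Immediate early and stress-responsive factors filled most of the other high ranks. Fos had 441, 596, 566 and 632 CPM in mice 1 to 4, Junb 283, 298, 194 and 432 CPM in mice 1 to 4, Klf6 503, 364, 566 and 690.0 CPM in mice 1 to 4 and Jund 115 ± 33.8 CPM. Atf3, a stress factor, had 97.1, 417, 169.9 and 148 CPM in mice 1 to 4 and was highest in mouse 2, without which its mean was 138 CPM. Zfp36, an RNA-binding protein that the name pattern also took, had 334 ± 131 CPM, Ybx1, which binds DNA and RNA, 444 ± 85.5 CPM, Nr4a2, an orphan nuclear receptor, 351 ± 126 CPM and Irf5 229.8 ± 35.2 CPM. For none of the 12 highest factors did the lowest mouse exceed the highest mouse of the next gene in the order, so that neighbours did not differ beyond their spread. The dissociation and immediate early list had counts in 31 of 31 members, a median of 114 length-scaled CPM and a sum of 7243 ± 586 CPM. Cells were taken from tumours by enzymatic digestion, and its part in these levels was not tested.

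Among receptors and surface proteins, Tyrobp, Cd52 and Fcer1g had the highest length-scaled levels. Tyrobp (4651 ± 509 length-scaled CPM) and Cd52 (3959 ± 278) overlapped between mice, Cd52 was above Fcer1g, the Fc receptor gamma chain (1922 ± 792), in each mouse, and Fcer1g was above Gpr171. Fcer1g had 441, 424, 599 and 1019 CPM in mice 1 to 4, highest in mouse 4. Gpr171, a G protein-coupled receptor, had 724, 682, 987 and 889.9 CPM in mice 1 to 4. Cd83, which steadies MHC class II at the surface, had 653, 769, 841 and 1161 CPM in mice 1 to 4. Il1r2, the decoy receptor of interleukin 1, had 441, 649, 429 and 722 CPM in mice 1 to 4 and counts in 11 of 12 pools.

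Further down came Cd53 (602 ± 72.2 CPM), a tetraspanin, Klrd1 (217 ± 113 CPM), the CD94 chain of NK cell receptors, P2ry10 (415 ± 96.6 CPM), a lysophospholipid receptor, Cd48 (153 ± 77.3 CPM), Ly6e (435 ± 175 CPM), the tetraspanin Cd9 (229 ± 81.9 CPM) and Gpr65 (214 ± 71.1 CPM), which senses protons. Ccr7 was the 12th receptor by length-scaled level but had no count in 5 of 12 pools. Its counts were 32 in mouse 2 pool 3, 33 and 28 in mouse 4 pools 2 and 1, 24 in mouse 3 pool 3, 10 in mouse 1 pool 1 and 3 in mouse 2 pools 1 and 2. Per mouse this gave 88.3, 252, 194 and 393 CPM in mice 1 to 4. Of the 4 pools with 24 or more counts, 3 were marker pools, and the mean was 232 CPM with and 128 CPM without marker pools.

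S100 proteins, galectins, chemokines and interleukin 1 beta led the secreted class. S100a11, a calcium-binding protein, stood above all others in each mouse at 7880.3 ± 1108 length-scaled CPM. Il1b, the interleukin 1 beta gene, had 1201, 1391, 1901 and 2186 CPM in mice 1 to 4 and was detected in 12 of 12 pools, from 522 to 3933 CPM with a median of 1714. Ccl4, an inflammatory chemokine, had 468, 576, 1165 and 1135 CPM in mice 1 to 4, with mice 3 and 4 above mice 1 and 2. Ccl3, its close relative, had counts in 6 pools, 0, 265, 162 and 161 CPM in mice 1 to 4. Most came from mouse 2 pool 2 (39 counts), mouse 4 pool 1 (23) and mouse 3 pool 3 (19), all of them marker pools, and the mean without marker pools was 19.3 CPM.

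The other secreted proteins were Lgals1 (468, 444, 1059.75 and 1148 CPM in mice 1 to 4), Lgals3 (1132 ± 140.3 CPM), S100a6 (899 ± 325 CPM), S100a10 (406 ± 121 CPM), Grn (progranulin, 200.4 ± 73.5 CPM) and Mif (53.0, 345, 194 and 264 CPM in mice 1 to 4), which was lowest in mouse 1. Ccl6 had 141, 26.5, 8.09 and 329 CPM in mice 1 to 4 and its mean was 58.6 CPM without mouse 4 and 72.8 CPM without marker pools. Counts of 3 further genes, picked after their values were seen, were few. Il12b, the p40 subunit of interleukin 12, had 28 counts in 4 pools, 16 of them in mouse 4 pool 1 and 10 in mouse 2 pool 3. Ccl22 had 23 counts in 5 pools, with 9 in mouse 1 pool 3, and Ccl5 11 counts in 5 pools.

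**Figure D3:**
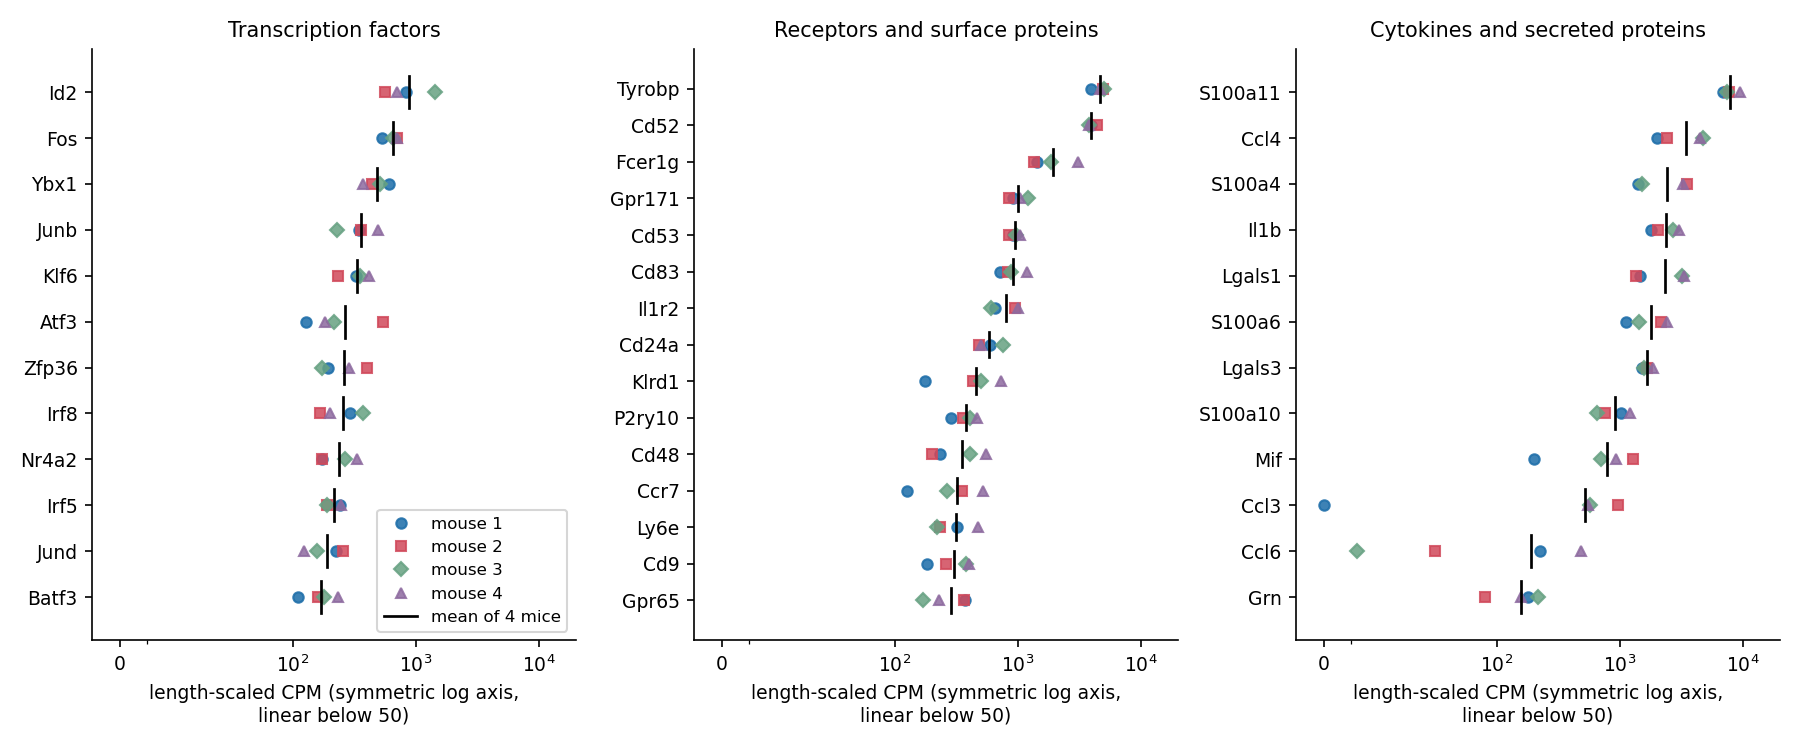
Length-scaled CPM (symmetric log axis, linear below 50) of the 12 highest transcription factors, 15 highest receptors and surface proteins and 12 highest cytokines and secreted proteins, 1 symbol per mouse and a line at the mean of 4 mice. Symbols of neighbouring genes overlap except below Cd52, Fcer1g, S100a11 and Lgals3, and Ccl3 lies at 0 in mouse 1.

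Genes of maturation were present at a level that was uneven between pools. The list had counts in 35 of 36 members with a row, 4 in all 12 pools, with a median of 51.3 length-scaled CPM; Slco5a1 was at 0. Its sum was 3598 ± 855 CPM between mice and ran from 782 to 7189 CPM between pools. Marcks had 386 ± 74.0 CPM and Tmem123 228 ± 103 CPM, both in all pools. Fscn1, an actin-bundling protein of mature dendritic cells, had counts in 8 pools, with 53.0, 139, 146 and 116 CPM in mice 1 to 4. The inhibitory list had counts in 28 of 28 members with a row, led by Il1r2, Cd47 (582 ± 72.3 CPM), Btla and Havcr2 (TIM-3, 132 ± 51.8 CPM).

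Prostaglandin genes had low levels. Of 11 with a row, 9 had counts, with a median of 6.75 length-scaled CPM against 10.96 over all genes, and Ptges2 and Tbxa2r were at 0. Ptges3, a co-chaperone with prostaglandin E synthase activity, had 174 ± 30.7 CPM in 12 of 12 pools. Of the PGE2 receptors that raise cyclic AMP, Ptger4 (EP4) had 31 counts in 9 pools, 26.5, 59.6, 24.3 and 103 CPM in mice 1 to 4, and Ptger2 (EP2) 11 counts in 5 pools, 17.7, 6.63, 32.4 and 25.8 CPM in mice 1 to 4. Without marker pools, their means were 19.0 and 47.2 CPM. Tbxas1, the thromboxane synthase, had 23.6 ± 18.6 CPM, with 15.3 CPM without mouse 3 and 39.2 CPM without marker pools. The cyclic AMP list had counts in 26 of 26 members with a row, a median of 23.1 length-scaled CPM and 11 genes in all pools, among them Prkar1a (226 ± 39.8 CPM), Dusp1 (149 ± 64.7 CPM) and Crem (262 ± 63.8 CPM).

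Sensing and signalling genes had counts at about the share of all protein-coding rows, 9676 of 10269. The pattern recognition list had counts in 38 of 39 members (Tlr6 at 0), a median of 19.5 length-scaled CPM, and was led by Ifi205, the chaperone Hsp90b1 (503 ± 104 CPM), Unc93b1 (127 ± 35.6 CPM), which carries endosomal Toll-like receptors, and Clec9a. All 19 NF-kB genes had counts, with Nfkbia (282 ± 187 CPM), Rel (346 ± 126 CPM), Nfkbie (67.6 ± 36.7 CPM) and Rela (58.1 ± 11.7 CPM) highest per length. Without marker pools the mean of Rela was 27.6 CPM. The type I interferon list had counts in 32 of 33 members (Ifit3 at 0) but only 2 in all pools and a median of 12.8. Its leading genes were Ifi27l2a (252 ± 74.0 CPM), Bst2 (128 ± 88.9 CPM), Isg15 (57.2 ± 36.6 CPM) and Trim30a (270.1 ± 35.9 CPM). Without marker pools the mean of Ifi27l2a was 159.8 CPM and that of Isg15 11.1 CPM. Bst2 is also a pDC marker, and its mean without marker pools was 72.8 CPM.

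Metabolic and survival genes were led by a few members. Of 22 iron, oxidative and metal genes with a row, all had counts, with a median of 128 length-scaled CPM and a sum of 6671 ± 299 CPM. The ferritin chains Fth1 (1974 ± 53.5 CPM) and Ftl1 (849 ± 84.7 CPM), Gpx1 (777 ± 138 CPM), a glutathione peroxidase, and Mt1 (617 ± 167 CPM), a metallothionein, were highest. Glycolysis and hypoxia genes had counts in 23 of 23 with a row, a median of 52.2, and were led by Mif, Ldha (416 ± 54.1 CPM), Gapdh (469.7 ± 132 CPM) and Pgk1 (184 ± 67.5 CPM). Apoptosis genes had counts in 22 of 22 and a median of 31.9. The survival factors Bcl2a1b (623 ± 342 CPM), Bcl2a1d (603 ± 234 CPM) and Bcl2a1a (285 ± 189 CPM) are near-identical copies whose counts cannot be assigned with certainty, and Mcl1 had 369.7 ± 114 CPM.

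Cell cycle genes had counts in 29 of 30 members (Ccnb2 at 0), with a median of 15.2 length-scaled CPM. Their sum was 2521 ± 582 CPM between mice but uneven between pools, from 1196 to 6077 CPM with a median of 2162. The histone variant H2afz (1048 ± 253 CPM), Tuba1b (336 ± 145 CPM) and Pcna (163 ± 56.6 CPM) led, while Tubb5 had 309, 186, 178 and 161 CPM in mice 1 to 4, highest in mouse 1. Scavenging receptors had counts in 17 of 17 with a row and a median of 8.83. They were led by Timd4 (35.3, 285, 299 and 226 CPM in mice 1 to 4), a receptor for phosphatidylserine, Cd68 (101 ± 55.3 CPM) and Havcr2.

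Malat1 and Ifitm1 varied between pools of the same mouse well beyond counting error. For the 1397 rows of 100 CPM or more, the spread between pools of a mouse was set against counting error as a ratio that is 1 when counting error is the whole spread. Its median was 1.82 and the central 80% ran from 0.859 to 4.44. For the same relative spread this ratio grows with a gene's counts, so that abundant genes rank high, and it does not order genes by how widely their levels ranged. Malat1, a nuclear long RNA, had a ratio of 96.7, the highest outside rows of ribosomal RNA, pseudogenes and predicted genes, from 3294 to 21676 CPM with a median of 6319, with mouse 1 pool 1 highest. Ifitm1 had 70.9, from 1351 to 10305 CPM with a median of 5446, and mouse 1 alone held its lowest and highest pool. Tmsb4x (28.7), Tmsb10 (22.8) and Cst3 (22.2) also had high ratios. Tmsb4x ran from 11253 to 22127 CPM with a median of 14392 and Cst3 from 7058 to 15023 CPM with a median of 11775.

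Apoe, Rgs1 and AW112010 were absent from some pools. Apoe, a lipid carrier of macrophages, had 61 counts in mouse 2 pool 2, 38 in mouse 4 pool 1 and 1 in mouse 3 pool 2, with 0 elsewhere, and its mean was 84.4 CPM without mouse 2 and 4.85 CPM without marker pools. Rgs1, a regulator of G protein signalling, ran from 0 to 2291 CPM with a median of 725, and AW112010, a gene annotated as a long RNA, from 0 to 1706 CPM with a median of 144; both were highest in mouse 2 pool 3. The mean of Rgs1 without marker pools was 466 CPM. Lyz2, lysozyme of macrophages and monocytes, was in 12 of 12 pools but had 111 of 254 counts in mouse 4 pool 1. Ube2n (0.210), Tmem256 (0.271) and Hint1 (0.288) had some of the lowest ratios, so that no spread beyond counting error was seen at their counts. Their levels still ranged between pools, for Ube2n from 66.1 to 155 CPM with a median of 109.

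**Figure D4:**
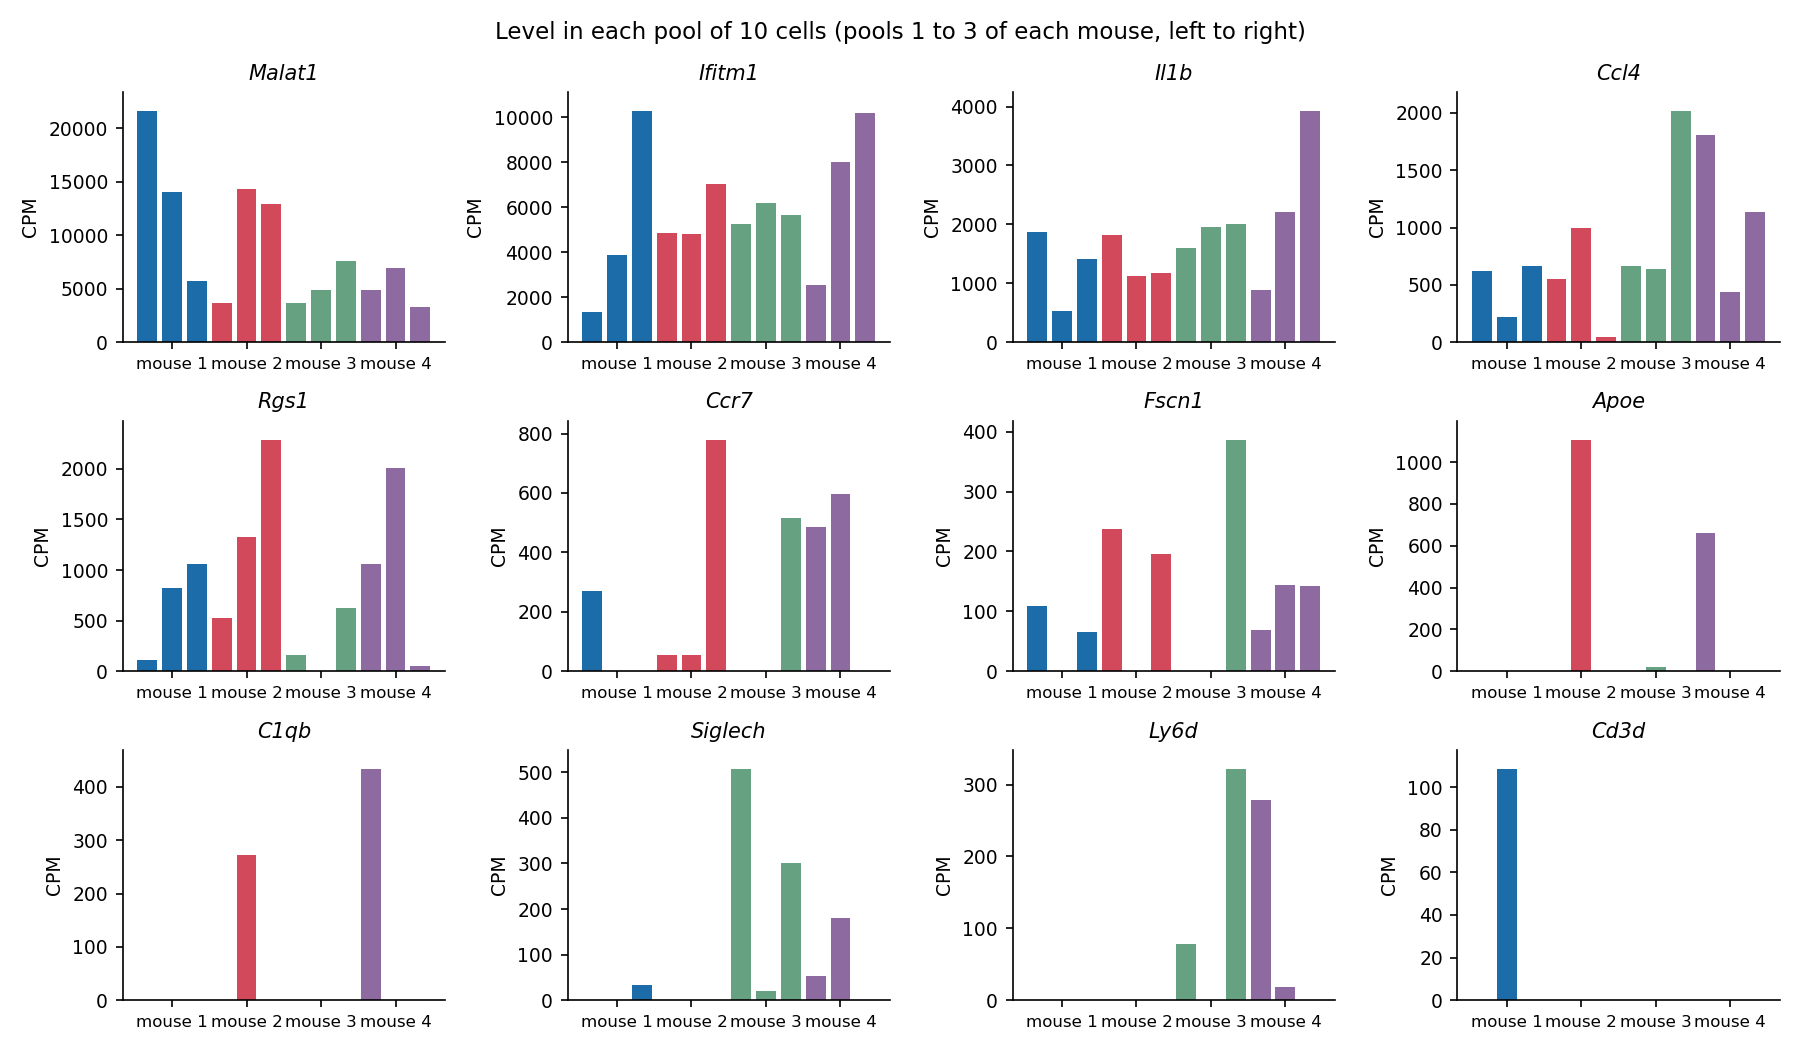
CPM of 12 genes in each pool of 10 cells, 1 bar per pool, in the order of pools 1 to 3 within each mouse and coloured by mouse, each panel with its own axis from 0. Malat1, Ifitm1 and Il1b are present in all 12 pools, Ccr7 in 7, and Apoe, C1qb, Ly6d and Cd3d in 4 or fewer.

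Differences between mice were tested against the spread between pools. Of 905 genes with enough counts, 0 passed an adjusted p of 0.05 (0% of those tested; edgeR quasi-likelihood F-test over 4 mice, Benjamini-Hochberg), and 51 (5.64%) had an unadjusted p under 0.05. The smallest adjusted p, 0.463, belonged to mt-Rnr1, a mitochondrial ribosomal RNA, at 6127, 11746, 4449 and 4695 CPM in mice 1 to 4 and highest in mouse 2. The DESeq2 likelihood ratio test called 1 of 905 genes (0.11%), and that gene was mt-Rnr1 too (DESeq2 adjusted p = 0.00463), named here after its values were seen. The edgeR test called 30 of 12401 genes (0.242%) with no filter on low counts, and 21 of 1085 (1.94%) without the pools that held markers of other cells, where mice 3 and 4 kept 1 pool each. Irf8 (unadjusted p = 0.00869, edgeR adjusted p = 0.839) and Lgals1 (unadjusted p = 0.00664, edgeR adjusted p = 0.839) did not pass. Between them these last settings shared 10 called genes, among them Malat1, Rgs1, Nfkbia, AW112010, Bcl2a1a, Bcl2a1b and Lgals1, named here after their values were seen. Without marker pools the spread came from mice 1 and 2 alone, and the lone pools of mice 3 and 4 were assumed to vary like theirs. None of the 12 tested cDC1 identity genes was called, and 2 had an unadjusted p under 0.05. For rows of 100 CPM or more, the coefficient of variation between mice had a median of 22.99%, with a central 80% from 9.43% to 43.4%. On simulated counts of these 905 genes, all given 1 common spread between pools, the test recovered 98.8% of 4-fold and 39.4% of 2-fold differences. In the data that spread differed between genes, so these rates need not hold for each gene. Malt1, named after its values were seen, had a 13.1-fold ratio of highest to lowest mouse and did not pass (edgeR adjusted p = 0.839). Small differences, and large ones in uneven genes, could have been missed at this depth.

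Pools of 1 mouse were not detectably more alike than pools of different mice. Over 5843 genes with 10 or more counts, the mean Spearman correlation was 0.530 over 12 pairs within a mouse (0.486 to 0.567) and 0.533 over 54 pairs between mice (0.472 to 0.579). The difference of -0.00286 had an exact one-sided permutation p of 0.741 over 15400 assignments of the 12 pools to 4 mice. A p of this size does not show that the mice were alike. Because the labels call the pools technical replicates, p-values against them measure the spread between pools of sorted cells.

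**Figure D5:**
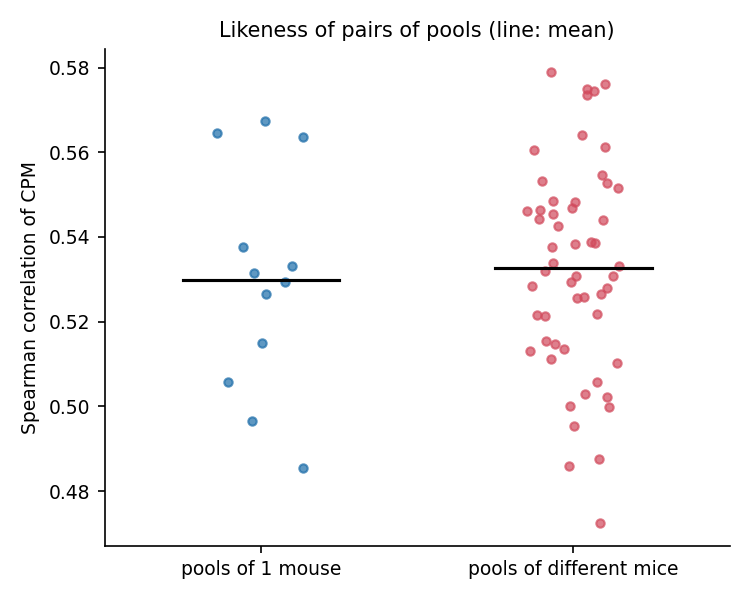
Spearman correlation of CPM between pairs of pools over 5843 genes, 1 point per pair (horizontal positions jittered), for 12 pairs within a mouse and 54 pairs between mice, with a line at each mean. The within-mouse pairs, from 0.486 to 0.567, lie inside the range of the between-mouse pairs, from 0.472 to 0.579, and the means are 0.530 and 0.533.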

How the data were processed

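RNA of sorted tumour cDC1 was sequenced with the Smart-seq3 protocol, made for very small amounts of RNA, per the labels' protocols. The authors deposited a table of raw counts, whole numbers for 13572 gene rows. The submitters' processing notes name STAR 2.5.4b and GRCm38 (mm10). Not given in the sources used here: the counting program, the annotation and whether molecular identifiers were used. Therefore amplified reads may not be independent molecules and floors cover counting error only.

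Rows were matched by identifier to GENCODE M21 (13567 of 13572) for type and exon length, and 16 symbols turned into dates were restored. The 3 pools of a mouse were summed. Genes were tested between mice with edgeR 4.0.16 (TMM, filterByExpr with a minimum count of 10, quasi-likelihood F-test, Benjamini-Hochberg, threshold 0.05), and DESeq2 1.42.0 was an alternative. The test was tried on 5 simulations with 200 changed genes each and 1 common spread between pools for all genes. There, 3.09% of calls were false and no more than 0 calls arose without changed genes. Pools were compared with an exact permutation test. R 4.3.3, Python 3.11.15 and matplotlib 3.10.9 were used.

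Named genes were the 20 highest protein-coding genes outside ribosomal and mitochondrial groups, the 12 highest transcription factors, 15 receptors and 12 secreted proteins by name pattern, all cDC1 identity genes, up to 4 highest members and the members without counts of each other list, and the 10 genes with the highest pool spread ratio. Further members of the fixed lists (Siglech, Itgam, the class II genes beyond the highest and their regulators, H2-K1, Psmb8, Psmb9, Tap1, Tap2, Il12b, Ccl22, Ccl5 and Fscn1), 3 genes of low pool spread ratio, mt-Rnr1 and genes called in alternative settings were added after their values were seen. Sirpa and Cd300a were also added after their values were seen. The members, lists and rules were chosen with earlier results of these data known. The marker sets that define marker pools were chosen after counts were seen. Some genes that the naming rule selects are not reported here.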

Additional observations from a re-analysis of the deposited data

Results flagged for a closer look

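In 196 groups of 4 mice (163 named genes, the gene classes and the lists with counts), 20 had a mouse that stood apart from the other 3 by Dixon's test at 95%, or 10.2%. Chance alone flags about 1 in 20 groups, and genes with counts in 1 mouse only are always flagged.

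Among abundant genes, Actb was low in mouse 2 (12714 CPM, others 14464 to 14753) and H2-Ab1 low in mouse 3 (4150.0 CPM, others 4314 to 4344). Tyrobp (927 CPM, others 1193 to 1238), Ctsz (150.1 CPM, others 212 to 219) and the sum of the iron, oxidative and metal list (6224 CPM, others 6790.5 to 6864) were low in mouse 1. Wdfy4 (411 CPM, others 582 to 593) and Cd209a (13.3 CPM, others 113 to 129) were low in mouse 2. Tubb5 was high in mouse 1 (309 CPM, others 161 to 186) and Trim30a high in mouse 3 (324 CPM, others 247 to 258). Lyz2 (858 CPM, others 274 to 372), Psme1 (735 CPM, others 497 to 512) and Nfkbie (123 CPM, others 46.4 to 53.0) were high in mouse 4. Macrophage markers gave 120 counts in a pool of that mouse, and their part in the Lyz2 level was not tested.

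The other flagged genes had 1 to 5 counts in 1 mouse and 0 in the rest: Cd3d (44.1 CPM), Cd3g (17.7 CPM) and Lat (8.83 CPM) in mouse 1, Hdc (13.3 CPM) in mouse 2, Fcer2a (16.2 CPM), Lck (24.3 CPM) and Pmel (24.3 CPM) in mouse 3, and Blk (6.45 CPM) in mouse 4.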

How the results depend on the processing

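The count of genes differing between mice stayed at 0 under other scaling, count minimums of 5 and 20, robust dispersion, without technical rows and with each mouse or pool number left out (0 to 0). It was 30 of 12401 genes with no filter, 1 with DESeq2, and 21 of 1085 without marker pools, where mice 3 and 4 kept 1 pool each; the cause was not tested. With the pool number as a replicate block it was 0 of 905. Deviations of same-numbered pools correlated from -0.310 to 0.286. Pools of different numbers were not compared in this way, so these values do not show whether equal numbers shared an effect. The difference between within-mouse and between-mouse correlations stayed below 0 in the 9 alternatives run, from -0.00390 to -0.00150 with a mouse left out.

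Of 163 named genes, 157 stayed within 1.5-fold of their level with any 1 mouse left out, with different genes outside it each time, and 127 did so without marker pools. With 4 mice, leaving 1 out cannot move a mean by more than the SD between mice, so those shares serve only as ranges: class II 2.24% to 2.34%, ribosomal proteins 16.3% to 16.6%, mitochondrial 4.88% to 5.55%, ribosomal RNA-like 6.20% to 7.50%, pseudogenes 11.1% to 11.5% and protein-coding 72.8% to 74.7%. Without marker pools the class II share was 2.49% and the pseudogene share 12.3%. Of the 50 highest genes, 34 remained without length scaling, 35 with median transcript length (added after seeing the data) and 48 to 50 with a mouse left out. Genes under about 5 CPM are at the limit of these counts.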
